A study of Mus musculus with 16 samples.

Results

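Macrophage marker genes, 9 of the 22911 genes with a symbol on the array, were followed across brown adipose tissue (BAT) and gonadal white adipose tissue (gWAT). Of these, 3 are pan-macrophage markers, Adgre1, Cd68 and Csf1r, and 6 are markers of tissue-resident or alternatively activated macrophages, Mrc1, Cd163, Lyve1, Clec10a, Folr2 and Retnla. Members were chosen by name: probes were matched to a gene through their RefSeq transcript, and the brightest probe of a gene gave its level. In Adipo-Pgam1 KO mice, the adiponectin promoter drives Cre in adipocytes, where it removes floxed Pgam1, which encodes a glycolytic enzyme. Littermate controls, called wild-type in the labels, were Adipoq-Cre-negative Pgam1 flox/flox mice, so both genotypes carried the floxed allele. All mice were C57BL/6NCrSlc males at 16 weeks of age, housed at 23 °C, except the KO replicate 4 of either tissue, which was at 14 weeks. RNA from each tissue and genotype was hybridized to 4 one-colour arrays, 16 in all, and the labels do not say whether BAT and gWAT of a number came from the same mouse.

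Macrophages are resident in adipose tissue, where they clear dying cells and lipid. Adgre1 encodes F4/80, a surface receptor of mouse macrophages, Cd68 encodes a glycoprotein of the lysosome, and Csf1r encodes the receptor for CSF1 and IL-34, which macrophages need to survive. The resident markers include scavenging and endocytic receptors. Mrc1 encodes the mannose receptor CD206, Cd163 the receptor for haemoglobin bound to haptoglobin, Clec10a a lectin that binds galactose-type sugars, and Folr2 a folate receptor. Lyve1 encodes a hyaluronan receptor shared with lymphatic endothelium, and Retnla encodes the secreted protein RELMα, which is induced by IL-4. In RNA of whole tissue, fewer macrophages and less marker RNA per macrophage cannot be told apart.

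Many macrophage promoters are bound by PU.1, the product of Spi1, whose core site, the PU-box, contains the letters GAGGAA. The RefSeq promoter table (GRCm38.p6) held 6 windows of 5 members, and the 250 bases before the start were searched for GAGGAA on both strands. The letters were found in 3 of the 6 windows, against 23.3% of all 32851 windows in the table. The windows of Cd68, Mrc1 and Retnla are shown because each held a match and because these genes changed in unlike ways in the 2 tissues, with the match in capitals (TTCCTC where it lay on the other strand). The Cd68 window is chr11:69666171-69666420 on the minus strand, that of Mrc1 is chr2:14229164-14229413 on the plus strand and that of Retnla is chr16:48842359-48842608 on the plus strand.
Cd68: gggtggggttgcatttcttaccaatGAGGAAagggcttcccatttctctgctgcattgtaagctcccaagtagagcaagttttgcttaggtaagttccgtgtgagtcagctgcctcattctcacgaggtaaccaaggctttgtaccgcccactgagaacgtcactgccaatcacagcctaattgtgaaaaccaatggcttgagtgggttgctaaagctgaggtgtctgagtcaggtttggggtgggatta
Mrc1: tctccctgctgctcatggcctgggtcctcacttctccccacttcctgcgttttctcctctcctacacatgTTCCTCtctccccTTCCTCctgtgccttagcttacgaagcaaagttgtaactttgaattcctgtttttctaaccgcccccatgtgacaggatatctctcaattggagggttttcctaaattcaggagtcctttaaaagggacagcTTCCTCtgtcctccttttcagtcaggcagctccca
Retnla: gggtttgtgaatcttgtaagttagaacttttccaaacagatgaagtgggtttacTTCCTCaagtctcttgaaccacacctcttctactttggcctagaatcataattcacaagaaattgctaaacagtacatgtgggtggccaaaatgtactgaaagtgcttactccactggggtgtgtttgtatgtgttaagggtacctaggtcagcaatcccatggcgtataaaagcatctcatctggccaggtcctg
Mrc1 held 3 matches, at 180, 167 and 35 bases before the start. Cd68 held 1 at 225 bases and Retnla held 1 at 196 bases before it. The windows of Cd163 and Folr2 held none of these letters. A match is a run of letters and was not tested as a binding site. Adgre1, Csf1r, Lyve1 and Clec10a were not searched here.

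The level of a gene is given as the log2 of its probe's signal over the 75th percentile of the same array, so that a level of 0 equals that percentile and a difference of 1 is a doubling. All 9 members were well above background on all 16 arrays. The 75th percentile was between 401.3 and 451.3 in BAT of controls and between 570.3 and 916.2 on the other arrays. Pgam1 itself was at 7.94, 7.93, 8.07 and 7.82 in control BAT and at 6.20, 6.13, 6.03 and 6.43 in KO BAT, a log2 change of -1.74 (SE 0.11, adjusted p = 1.11e-05). In gWAT it was at 5.07, 5.15, 5.67 and 5.56 in controls and at 6.50, 6.42, 6.38 and 5.95 in the arrays labelled Adipo-Pgam1 KO. The targeted gene was thus higher in the latter, by 0.95 (SE 0.19, adjusted p = 0.0139), so the directions stated for gWAT depend on that label. The thermogenic genes Cidea (3.41, SE 0.33), Cox7a1 (2.18, SE 0.35) and Elovl3 (4.35, SE 1.0) were also higher under the KO label in gWAT, where Ucp1 was well above background on 3 of 4 arrays. Ucp1, which marks brown fat, had a level of 9.89 ± 0.14 (SD, n = 4) in BAT of controls and was not well above background on any gWAT control array. Replicate 4 of the gWAT arrays labelled Adipo-Pgam1 KO is given apart below, because its pan-macrophage markers stood above those of the other arrays of its group. Its high pan markers are thus the reason for this choice and not a separate result. This array is also a 14-week array. Of all 16 arrays it had the lowest mean spike-in signal (log2, 15.1876) and the smallest share of probes well above background.

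Macrophage markers were higher in BAT of Adipo-Pgam1 KO mice, compared with their littermates. Of the 9 members, 8 rose, none fell, and Cd163 did not pass the test. For comparison, 27.5% of the 14280 genes tested were called higher and 34.0% lower at an adjusted p of 0.05. The median log2 change was 2.84 over the members and -0.08 over all genes tested. The groups did not overlap for the 8 members that rose, and they did not overlap for 57.1% of all genes tested. Within slide 2, which held all 4 KO arrays and 1 control, the 9 members differed by 0.69 for Cd163 to 3.74 for Cd68. Relative to the median of all genes, the median of the members was 2.92 higher. Median centring, spike-in scaling and Actb and Rplp0 scaling shift all genes of an array alike, so they cannot change this difference. It was 2.88 with quantile normalization and 2.73 with normexp. The median of the members itself was 2.25 with Actb and Rplp0 scaling and 3.38 with spike-in scaling.

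The pan-macrophage markers rose by 3.79- to 8.39-fold in BAT. Adgre1 was at 0.50, 0.31, 1.06 and 0.14 in controls and at 3.04, 3.74, 3.63 and 2.98 in Adipo-Pgam1 KO mice. Every Adipo-Pgam1 KO array was above every control array, with a change of 2.84 (SE 0.25, adjusted p = 3.16e-05). Cd68 was at 1.24, 1.16, 2.26 and 0.66 in controls and at 4.05, 4.90, 4.66 and 3.99 in Adipo-Pgam1 KO mice. Again the groups did not overlap, with a log2 change of 3.07 (SE 0.35, adjusted p = 1.07e-04). Control replicate 3 was the highest of the controls for all 3 pan markers. Csf1r was at 3.40, 3.37, 3.97 and 3.49 in controls and at 5.72, 5.61, 5.63 and 4.94 in Adipo-Pgam1 KO mice. Its change was 1.92 (SE 0.21, adjusted p = 8.45e-05), although the second, dimmer Csf1r probe changed by 0.58 (adjusted p = 0.025). The second probe of Cd68 changed by 3.55 (adjusted p = 6.48e-05) and that of Adgre1, which was well above background on 8 of 16 arrays, by 2.04 (adjusted p = 0.0199).

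Of the resident markers in BAT, Clec10a, Mrc1 and Folr2 rose as much as the pan markers. Clec10a was at -0.09, 0.72, 0.51 and 0.55 in controls and at 3.79, 4.06, 4.35 and 3.18 in Adipo-Pgam1 KO mice. Its change of 3.42 (SE 0.27, adjusted p = 2.07e-05) was larger than that of any other member. Mrc1 was at 0.49, 0.57, 1.08 and 0.52 in controls and at 3.88, 3.70, 4.30 and 3.37 in Adipo-Pgam1 KO mice, a change of 3.15 (SE 0.21, adjusted p = 1.25e-05). Folr2 was at -0.81, -0.42, 0.10 and -1.19 in controls and at 2.45, 2.67, 2.89 and 1.97 in Adipo-Pgam1 KO mice, a change of 3.07 (SE 0.29, adjusted p = 4.76e-05). The groups did not overlap for any of these 3 receptors. Lyve1 was at -2.37, -1.93, -1.83 and -2.13 in controls and at 0.48, -0.48, 1.16 and -0.36 in Adipo-Pgam1 KO mice, a change of 2.26 (SE 0.35, adjusted p = 5.34e-04).

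Retnla and Cd163 changed less in BAT and varied more among arrays. Retnla was at 0.45, 2.03, 0.99 and 1.51 in controls and at 3.11, 2.04, 2.70 and 2.29 in Adipo-Pgam1 KO mice. The lowest KO array and the highest control were 2.04 and 2.03, so that the groups met without overlapping, and the change was 1.29 (SE 0.35, adjusted p = 0.0119). This call was lost with scaling by Actb and Rplp0 (0.70, adjusted p = 0.127) and with the slide as a fixed block (1.03, adjusted p = 0.182). Cd163 was at -0.63, -0.27, 0.70 and 0.53 in controls and at 2.34, 0.62, 1.83 and 0.08 in Adipo-Pgam1 KO mice. Replicates 2 and 4 of the Adipo-Pgam1 KO mice lay within the control range and replicates 1 and 3 above it. The log2 change of Cd163 was 1.14 (SE 0.52, adjusted p = 0.0853), and without replicate 4 of the Adipo-Pgam1 KO mice it was 1.52 (adjusted p = 0.0288).

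**Figure D1:**
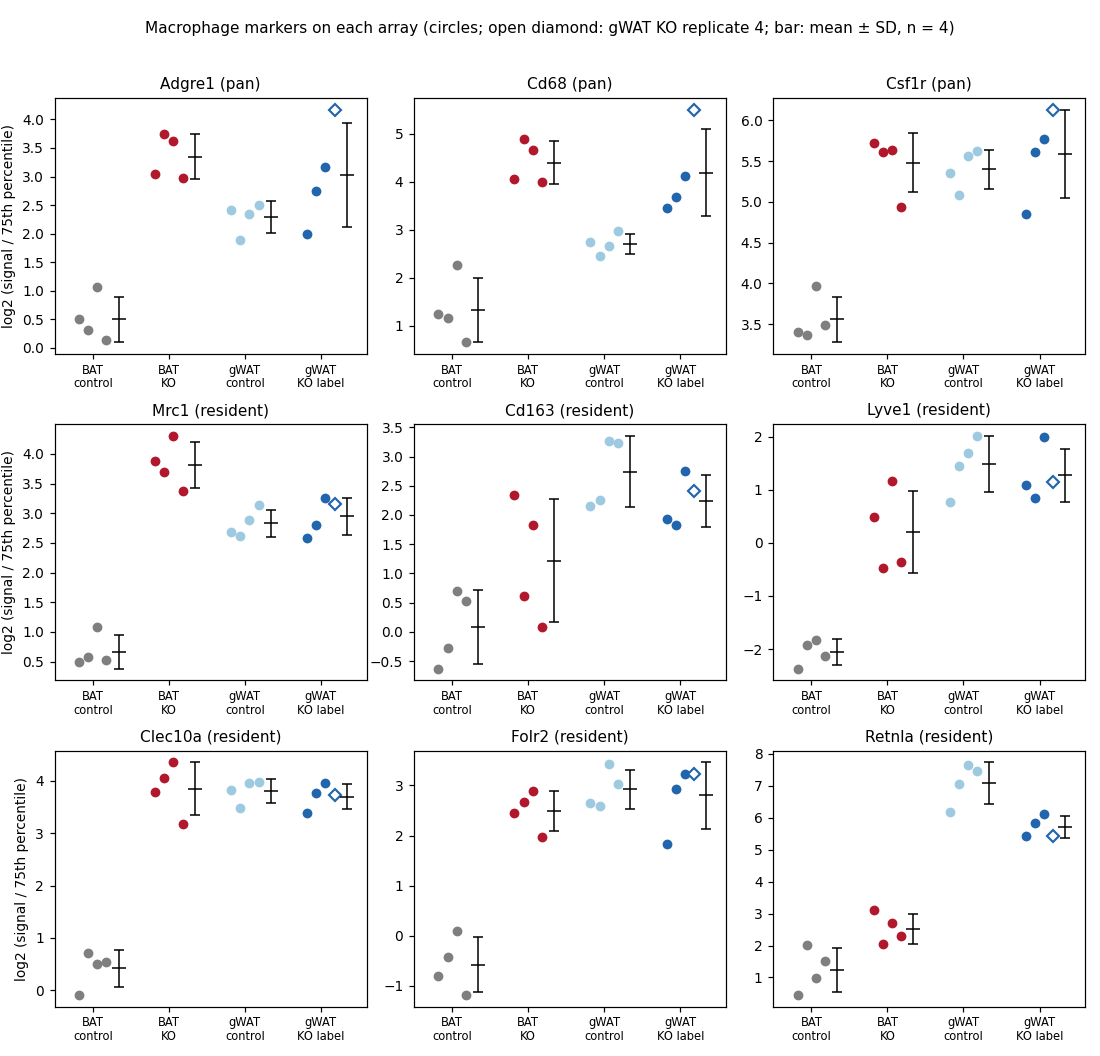
Level of each macrophage marker on each array, as log2 of the signal over the array's 75th percentile, for BAT and gWAT of controls and of arrays labelled Adipo-Pgam1 KO (4 arrays each). Points are arrays in the order of their replicate numbers, the open diamond is gWAT replicate 4 of the KO label, and bars give the mean ± SD; in BAT the 2 genotypes are separate for all but Cd163, and in gWAT they are separate for Cd68 and Retnla.

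In gWAT, most macrophage markers did not pass the test between the genotype labels. Only Cd68 was called higher and only Retnla called lower among the 9 members, whereas 9.99% of the 14149 genes tested were called higher and 7.85% lower. The median log2 change was -0.11 over the members and 0.05 over all genes tested. The groups did not overlap for 2 members, the same Cd68 and Retnla, and for 24.2% of all genes tested.

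Cd68 in gWAT was at 2.74, 2.45, 2.67 and 2.97 in controls and at 3.46, 3.69, 4.12 and 5.50 in the arrays labelled Adipo-Pgam1 KO. The groups did not overlap, with a change of 1.48 (SE 0.40, adjusted p = 0.0365). Without replicate 4, which held the highest value, the change was 1.05 (adjusted p = 0.0129). The call was nevertheless lost in 12 of the 23 alternatives that gave a p-value, with the change between 1.05 and 1.92 over all alternatives. It was lost without control replicate 1 (1.50, adjusted p = 0.0663), 2 (1.40, adjusted p = 0.0895), 3 (1.47, adjusted p = 0.0774) or 4 (1.57, adjusted p = 0.056) and without KO-label replicate 2 (1.65, adjusted p = 0.0534) or 3 (1.51, adjusted p = 0.0811). Within slide 3, which held the KO label and 1 control, Cd68 differed by 1.22. The second probe of Cd68 changed by 1.50 (adjusted p = 0.0372).

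The other pan-macrophage markers overlapped between the labels in gWAT. Adgre1 was at 2.41, 1.89, 2.35 and 2.51 in controls and at 2.0, 2.74, 3.16 and 4.17 in the arrays labelled Adipo-Pgam1 KO. Replicate 1 of the latter lay within the control range, and the change was 0.73 (SE 0.40, adjusted p = 0.236), or 0.34 without replicate 4 (adjusted p = 0.417). Csf1r was at 5.36, 5.08, 5.56 and 5.62 in controls and at 4.85, 5.61, 5.77 and 6.13 in the arrays labelled Adipo-Pgam1 KO. Its change was 0.19 (SE 0.26, adjusted p = 0.656), and it was below 0 with its second probe (-0.29, adjusted p = 0.288), with quantile normalization and with the slide as a fixed block. Replicate 4, which was set apart for these values, was the highest gWAT array for all 3 pan-macrophage markers. Its summed level of these (the sum over genes of the signal over the 75th percentile) was 133.0. The sum was 43.9 to 80.8 on the other arrays of its label and 43.1 to 62.8 in controls. The correlation of replicate 4 with the arrays of its own group was no lower than that of replicate 1. The mean Pearson r over 12360 genes was 0.9772 for both.

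Retnla in gWAT was at 6.19, 7.05, 7.64 and 7.46 in controls and at 5.42, 5.84, 6.11 and 5.42 in the arrays labelled Adipo-Pgam1 KO. It fell by 1.38 (log2, SE 0.32, adjusted p = 0.0218), and by 1.29 without replicate 4 (adjusted p = 0.0385). The direction was the same in all 23 alternatives (-1.76 to -0.95), whereas the call was lost in 7 of them, among these the slide as a fixed block (adjusted p = 0.138). It was also lost without control replicate 2 (-1.40, adjusted p = 0.0544) or 3 (-1.20, adjusted p = 0.0523) and without KO-label replicate 1 (-1.29, adjusted p = 0.0667). The slide with all 4 gWAT arrays of the KO label held 1 control array, at a Retnla level of 7.46, above all 4 of them (-1.76 within that slide).

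The remaining resident markers changed by -0.50 to 0.12 in gWAT and overlapped between the labels. Mrc1 ranged from 2.61 to 3.13 in controls and from 2.59 to 3.25 in the arrays labelled Adipo-Pgam1 KO, a change of 0.12 (SE 0.19, adjusted p = 0.686). Clec10a ranged from 3.48 to 3.97 in controls and from 3.39 to 3.95 under the KO label, a change of -0.11 (SE 0.17, adjusted p = 0.688). Folr2 changed by -0.13 (SE 0.33), with its lowest value, 1.83, in replicate 1 of the KO label. Lyve1 changed by -0.21 (SE 0.32) and Cd163 by -0.50 (SE 0.32, adjusted p = 0.31). The signs of Mrc1, Clec10a, Lyve1 and Folr2 depended on the scaling, the probe or the slide term, and no direction is given for them.

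The difference between the 2 tissues was tested as the interaction of genotype and tissue over all 16 arrays. The genotype difference was more positive in BAT than in gWAT for all 9 members, and 8 of them were called. In this fit 21.0% of the 14820 genes tested were called in that direction and 27.4% in the opposite direction. The difference was largest for Clec10a, at -3.53 as gWAT minus BAT (SE 0.33, adjusted p = 5.77e-06). It was -3.20 for Folr2 (SE 0.47, adjusted p = 1.11e-04), -3.03 for Mrc1 (SE 0.30, adjusted p = 8.55e-06) and -2.67 for Retnla (SE 0.51, adjusted p = 7.16e-04). The pan markers were nearer to 0, with Adgre1 at -2.11 (SE 0.51), Csf1r at -1.73 (SE 0.35) and Cd68 at -1.58 (SE 0.57), but genes were not tested against each other. Lyve1 was at -2.47 (SE 0.50, adjusted p = 0.00113). Cd163 missed the threshold at -1.64 (SE 0.66, adjusted p = 0.0526) and passed without the 14-week arrays (-2.08, adjusted p = 0.0194). The call of Cd68 (adjusted p = 0.0325) was lost in 14 of its 31 alternatives, and its difference kept its sign in all of them. Among these were the fits without BAT control replicate 1, 2 or 4, BAT KO replicate 2 or 3, gWAT control replicate 1 or 4, or gWAT replicate 1, 2 or 3 of the KO label (-1.57 to -1.34). Cd163 passed without BAT control replicate 3 or 4, BAT KO replicate 2 or 4, gWAT control replicate 1 or 2, or gWAT replicate 3 of the KO label (-2.02 to -1.79). Adgre1 lost its call with its second probe (-1.48, adjusted p = 0.166).

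**Figure D2:**
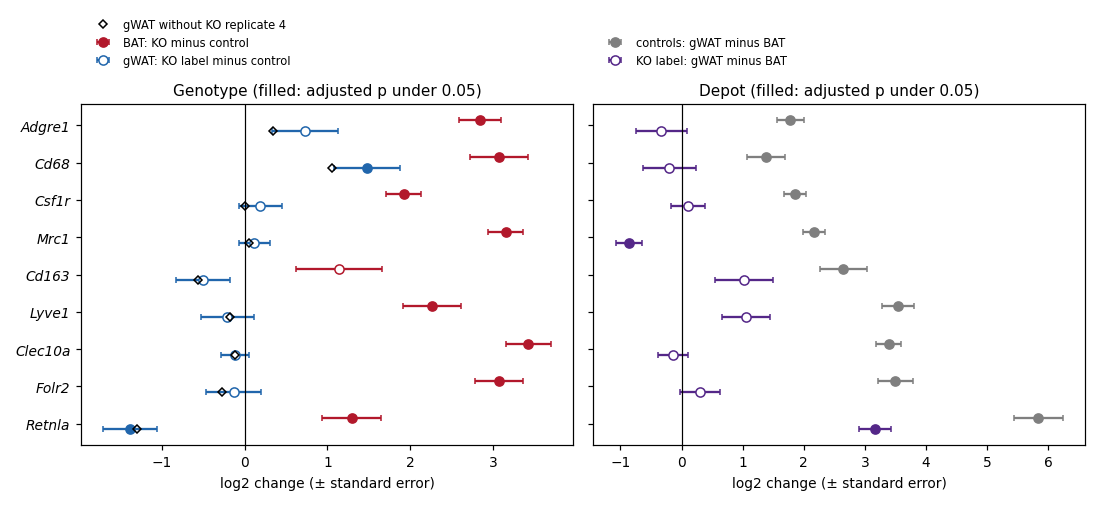
Log2 change (± standard error, limma) of each marker between the genotype labels in BAT and gWAT (left) and between the tissues in controls and in arrays labelled Adipo-Pgam1 KO (right). Filled circles passed an adjusted p of 0.05, and small diamonds give gWAT without replicate 4 of the KO label; 8 members passed in BAT, and in gWAT Cd68 passed at 1.48 and Retnla at -1.38.

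In controls, all 9 members were higher in gWAT than in BAT, by 2.60-fold for Cd68 to 57.3-fold for Retnla. Among the 14304 genes tested, 29.3% were called higher in gWAT and 35.4% lower. The median log2 difference was 2.65 over the members and -0.10 over all genes. The groups did not overlap for any member, as for 60.8% of all genes. The pan markers differed least, with 1.38 for Cd68 (SE 0.31), 1.78 for Adgre1 (SE 0.22) and 1.85 for Csf1r (SE 0.18). With its second probe, Adgre1 did not pass (1.03, SE 0.63, adjusted p = 0.179). Mrc1 differed by 2.17 (SE 0.18), Cd163 by 2.65 (SE 0.38), Clec10a by 3.39 (SE 0.20), Folr2 by 3.50 (SE 0.29) and Lyve1 by 3.54 (SE 0.26). Retnla differed by 5.84 (SE 0.40, adjusted p = 6.23e-06). The BAT control array on slide 2, which held 3 of the gWAT controls, differed from these by 1.85 to 5.45 for the 9 members, and all 9 stayed past the threshold with the slide as a fixed block.

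Between the arrays labelled Adipo-Pgam1 KO, gWAT and BAT differed for Retnla and Mrc1 in limma without a block. Retnla was higher in gWAT by 3.16 (SE 0.26, adjusted p = 3.36e-05) and Mrc1 was lower by 0.86 (SE 0.22, adjusted p = 0.0132). The call of Mrc1 was lost with spike-in scaling (-0.72, adjusted p = 0.134) and with Actb and Rplp0 scaling (-0.66, adjusted p = 0.0656). Of the 14449 genes tested, 22.7% were called higher in gWAT and 23.4% lower. For the other members the difference lay between -0.33 for Adgre1 and 1.06 for Lyve1 (adjusted p = 0.0504). Without BAT replicate 3, Lyve1 passed (1.38, adjusted p = 0.0122), and without BAT replicate 1, Cd163 did (1.39, adjusted p = 0.0314). Lyve1 also passed with the replicate number as a block (adjusted p = 0.00765), and Cd163 with its second probe (1.50, adjusted p = 0.049). All BAT arrays of this label lay on one slide and all gWAT arrays on another, so that tissue and slide cannot be told apart here. These 2 comparisons share their arrays with the comparisons between genotypes.

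Ordered by the group means, BAT of controls was the lowest group for every member. For Adgre1, Cd68, Mrc1 and Clec10a, BAT of Adipo-Pgam1 KO mice had the highest mean. Of its neighbours in that order, gWAT under the KO label overlapped it for Adgre1 and Cd68 and gWAT of controls for Clec10a, whereas for Mrc1 BAT of Adipo-Pgam1 KO mice stood clear, at 3.37 to 4.30. Csf1r had the highest mean, 5.59, in gWAT under the KO label, but the 3 groups above BAT of controls overlapped. For Cd163, Lyve1 and Folr2, gWAT of controls had the highest mean and overlapped with gWAT under the KO label. Retnla alone was separate in all 4 groups, with means of 1.24 and 2.53 in BAT and of 5.70 and 7.08 in gWAT of the KO label and controls.

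Resident markers were also set against the pan markers of the same array, as the level of each minus the mean of Adgre1, Cd68 and Csf1r, a difference in which the scaling of the array cancels. The values are a description without a test. The mean of the pan markers was itself higher under the KO label in gWAT, by 0.80 (0.47 without replicate 4), so that a gene with an unchanged level is lower by as much on this measure. The median over the 14146 other genes tested was -0.75, and 92.8% of them were below 0. All 6 resident markers were below 0 too. The difference between the group means was -0.68 for Mrc1, -1.30 for Cd163, -1.01 for Lyve1, -0.91 for Clec10a, -0.93 for Folr2 and -2.18 for Retnla. Mrc1, Clec10a, Folr2 and Lyve1, whose own levels changed by -0.21 to 0.12, were thus near the value of an unchanged gene, and Cd163 and Retnla were farther below it. The groups did not overlap for any of these except Lyve1, where 20.5% of all genes tested were lower without overlap, and without replicate 4 the differences were -0.42, -1.03, -0.64, -0.58, -0.73 and -1.76, in the same order. Clec10a relative to the pan markers was at 0.33, 0.34, 0.43 and 0.27 in gWAT of controls and at -0.05, -0.26, -0.40 and -1.55 under the KO label. Retnla was at 2.68, 3.91, 4.11 and 3.76 in controls and at 1.99, 1.83, 1.76 and 0.15 under the KO label. Replicate 4 was the lowest of its group for all 6.

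In BAT the resident markers did not move together relative to the pan markers. Clec10a was higher relative to these in Adipo-Pgam1 KO mice, at -0.48, -0.69, -0.29 and -0.78 against -1.80, -0.89, -1.92 and -0.88 in controls, a difference of 0.81. The groups did not overlap, but only narrowly, between -0.78 and -0.88. The second, dimmer probe of Clec10a was not used for this measure. The mean of the pan markers itself rose by 2.61, so that 96.4% of all genes tested were lower and few could be higher. The median over all genes was -2.69, and 0.756% were higher without overlap. Mrc1 (0.54) and Folr2 (0.46) were higher and Lyve1 (-0.35), Retnla (-1.32) and Cd163 (-1.47) lower, with overlap between the groups for these 5. Cd163 relative to the pan markers was at -1.93, -4.13, -2.81 and -3.89 in Adipo-Pgam1 KO mice and at -2.34, -1.89, -1.74 and -0.90 in controls. The spread among the Adipo-Pgam1 KO arrays in BAT was therefore wider for Cd163 (SD 1.02) than for Clec10a (SD 0.22).

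**Figure D3:**
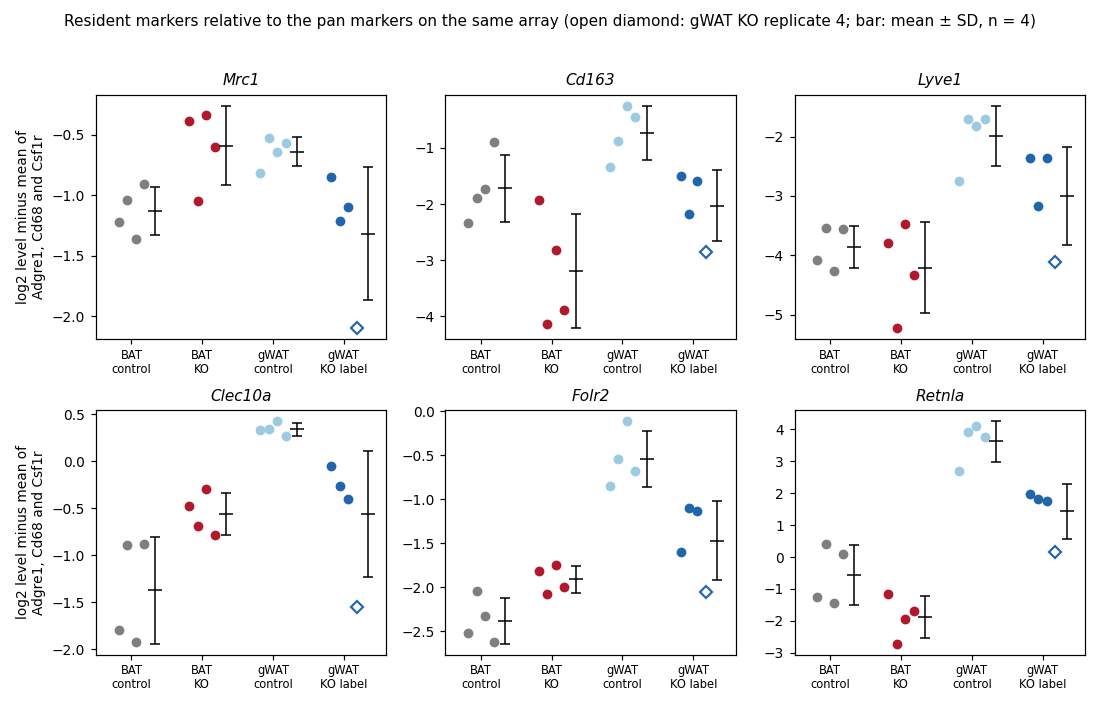
Level of each resident marker minus the mean of the 3 pan markers on the same array (log2), for BAT and gWAT of controls and of arrays labelled Adipo-Pgam1 KO, with 4 arrays each. Circles are arrays, the open diamond is gWAT replicate 4 of the KO label and bars give the mean ± SD; the mean of the pan markers was itself higher under the KO label, by 0.80 in gWAT and 2.61 in BAT, and in gWAT the arrays of the KO label lie below the controls for every gene but Lyve1, while in BAT the groups are separate for Clec10a.

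Pan and resident markers varied together to differing degrees across arrays. After subtraction of each group's mean, the Pearson r over the 16 arrays was 0.95 between Adgre1 and Cd68, 0.85 between Adgre1 and Csf1r and 0.75 between Cd68 and Csf1r. It was 0.78 between Mrc1 and Lyve1 and between Cd163 and Lyve1, 0.77 between Mrc1 and Cd163, and 0.81 between Mrc1 and Folr2, but 0.31 between Mrc1 and Retnla and 0.28 between Folr2 and Retnla. Retnla was at -0.17 with Adgre1 and at -0.24 with Cd68. The points share the array scaling, and these r are a description. The 5 genes with a profile most like the mean of the pan markers, among 12351 genes, were Tyrobp (r = 0.995), Pirb (0.986), Fcer1g (0.985), Selplg (0.984) and Man1c1 (0.984), where Tyrobp and Fcer1g encode signalling adaptors of myeloid receptors. Among those most like the mean of the 6 resident markers were Antxr2 (0.978), Plekha2 (0.976), Pdgfc (0.975) and Alox5 (0.975). These r include the differences between the group means.

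Further macrophage genes were examined by list. Of 15 further pan-macrophage genes, 13 rose in BAT and none fell, with a median log2 change of 2.74, beside 27.5% called higher among all genes tested. Cybb and Cx3cr1 were well above background on 3 of 4 BAT control arrays. They were tested through the KO arrays alone, which favours a call as higher. The largest rises were those of Fcgr1, a high-affinity IgG receptor (3.79, SE 0.29, adjusted p = 2.00e-05), and Ctss, which encodes the protease cathepsin S (3.28, SE 0.37, adjusted p = 1.13e-04). The 2 that did not pass were Itgam (0.14) and Mertk (0.36). In gWAT none of the 15 passed in limma or in the methods' t-test, against 7 at an unadjusted p under 0.05, with a median of 0.47, and the highest was Mpeg1 (1.44, SE 0.46, adjusted p = 0.0616). Replicate 4 of the KO label had a summed level of 312.0 over this list, against 86.4 to 130.0 on the other arrays of its label and 66.7 to 93.2 in gWAT of controls.

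Of the further resident-macrophage genes, 8 of 10 tested rose in BAT, with a median of 1.85, and 1 fell, beside 27.5% higher and 34.0% lower among all genes tested. Pf4, a chemokine (2.80, SE 0.27), and Stab1, a scavenger receptor (2.36, SE 0.25), rose most. Mgl2, a close paralog of Clec10a, fell by 0.59 in BAT (SE 0.13, adjusted p = 0.00364), and cross-hybridization between the pair was not tested. In gWAT 3 of 12 fell in limma and none rose, with a median of -0.28, beside 7.85% lower and 9.99% higher among all genes tested. In the methods' t-test 2 of the 12 passed. The 3 that fell in limma were the chemokine Ccl24, which fell by 1.12 (SE 0.19, adjusted p = 0.00877), Gas6, a ligand of receptors that clear dying cells, which fell by 0.59 (adjusted p = 0.0394), and Mgl2, which fell by 0.47 (adjusted p = 0.0222). Timd4 and Vsig4 were not well above background on any BAT control array.

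Genes of lipid-associated macrophages, which take up and break down lipid, were higher in BAT, and 6 of them also in gWAT. Among all genes tested, 27.5% were called higher in BAT and 9.99% in gWAT. All 10 rose in BAT, with a median log2 change of 4.39, led by the secreted protein Spp1 (6.13, SE 0.82, adjusted p = 2.66e-04) and the galectin Lgals3 (5.05, SE 0.42, adjusted p = 2.48e-05). Spp1 and Mmp12 were well above background on 1 of 4 BAT control arrays, and Itgax and Atp6v0d2 on 2 of 4. These genes were tested through the KO arrays alone, which favours a call as higher. The sizes of these changes, and with them the median, rest partly on control signals near background. In gWAT 6 of 10 rose in limma (3 passed in the methods' t-test) and none fell, with a median of 1.88, led by Gpnmb (3.15, SE 0.66, adjusted p = 0.0166) and the proton-pump subunit Atp6v0d2 (2.95, SE 0.70, adjusted p = 0.0248). Spp1 in gWAT (2.15, adjusted p = 0.184) and Itgax (1.38, adjusted p = 0.16) did not pass. Over this list the summed level of replicate 4 of the KO label was 562.0, against 420.0 to 535.0 on the other arrays of its label and 93.4 to 208.0 in gWAT of controls. Fabp5 (mean level 7.96 under the KO label) and Lgals3 (7.54) make up most of this sum, since no other gene of the list exceeded a mean of 3.57. It therefore cannot show how the dimmer genes of the list stood in replicate 4.

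Genes of alternative activation and of the CSF1 axis were mixed. In BAT 3 of 8 genes of alternative activation rose and 1 fell, with a median of 0.68, beside 27.5% higher and 34.0% lower among all genes tested. Those with the largest rise were the receptor chains Il13ra1 (2.17, SE 0.15) and Il4ra (1.74, SE 0.42), and Tgm2 fell by 0.45 (SE 0.14). Ccl17, which also rose, was not well above background on any BAT control array. It was tested through the KO arrays alone and could be counted only as higher. In gWAT only Stat6, the transcription factor below these receptors, rose among 9 tested (0.56, adjusted p = 0.0222). Of 8 genes of the CSF1 axis and of lineage factors, 6 rose and 1 fell in BAT, with a median of 2.01. Csf1, the ligand of Csf1r, rose by 2.82 (SE 0.40, adjusted p = 3.41e-04) and Irf8, a transcription factor of the lineage, by 2.73 (SE 0.15). The other ligand, Il34, fell by 0.59 in BAT (SE 0.13, adjusted p = 0.00445) and by 1.27 in gWAT (SE 0.20, adjusted p = 0.00632), where it was the only one of the 8 to pass. Spi1, which encodes PU.1, was not well above background on any BAT control array and was at least 2.19-fold higher in BAT of Adipo-Pgam1 KO mice (adjusted p = 7.98e-04). Like Ccl17, it could be counted only as higher. The bound sets the mean of the KO arrays against the dimmest signals that were well above background on the control arrays.

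**Figure D4:**
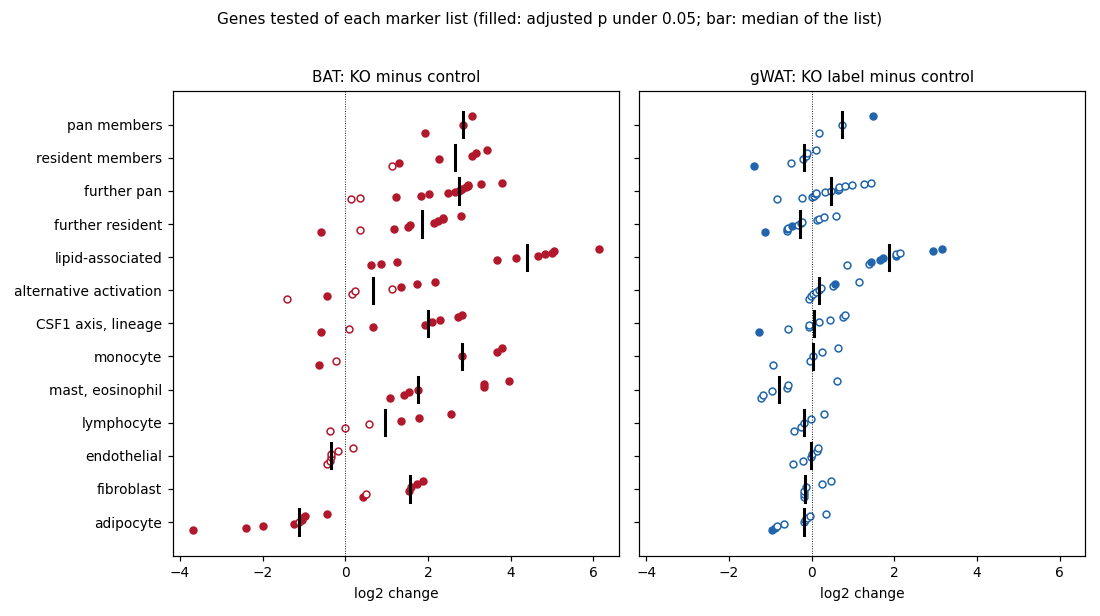
Log2 change of each tested gene of the macrophage lists and of other cell type lists in BAT (left) and gWAT (right), between Adipo-Pgam1 KO label and controls. Filled circles passed an adjusted p of 0.05 and black bars are the medians of the lists. In BAT the lipid-associated list has the highest median (4.39), which rests partly on control signals near background. In gWAT it is the list with 6 genes past the threshold (median 1.88).

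Markers of other cell types moved in BAT together with the macrophage markers, and their part in the results was not tested. Over all genes tested in BAT, 27.5% were called higher and 34.0% lower. Of the adipocyte markers 8 of 9 fell, from Cfd (-3.68, SE 0.37) to Lep (-0.44), with a summed level of 2860 to 3410 in controls and of 928 to 1280 in Adipo-Pgam1 KO mice. All 7 tested markers of mast cells and eosinophils rose, from Tpsb2 (1.08) to Cpa3 (3.96), with a sum of 2.33 to 3.0 in controls and of 8.78 to 23.1 in Adipo-Pgam1 KO mice. Epx and Siglecf, which define eosinophils, were not well above background on any BAT array. Of the fibroblast markers 5 of 6 rose (sum of 123.0 to 169.0 and of 218.0 to 312.0), Col1a1 most (1.88) and Dcn least (0.43) among those. Of the monocyte markers 3 of 5 rose, among them F10 (3.80), which was well above background on 1 of 4 BAT control arrays. Of the dendritic markers 3 of 5 rose, with Clec9a at least 8.17-fold higher, and 2 fell, Zbtb46 by 0.49. Of 11 lymphocyte markers on the array 6 were tested, of which 3 rose, Klrb1c at least 2.04-fold, and none fell. Clec9a and Klrb1c were not well above background on any BAT control array. They were tested through the KO arrays alone and could be counted only as higher. Ccr2, F10, Flt3, Cd209a and Cd3g were also tested through the KO arrays alone, which favours a call as higher.

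The endothelial markers and the remaining lists were mixed in BAT. None of the 6 endothelial markers passed in limma or in the methods' t-test (0 at an unadjusted p under 0.05), from Kdr (-0.45) to Cdh5 (0.19). Of 4 neutrophil markers Camp fell by 0.90 and none rose, with S100a8 at 1.15 (adjusted p = 0.205). Among the lymphatic endothelial markers, which share Lyve1 with macrophages, Pdpn rose (2.15) and the other 3 tested did not pass, the lowest being Mmrn1 (0.10), while Prox1 was not well above background on any BAT array. Of the thermogenic markers 5 of 6 fell, Dio2 by 2.42, and Ppargc1a was at 0.63 (adjusted p = 0.285). The skeletal muscle sum was 0.387 to 1.07 in BAT of controls and 0.848 to 78.9 in Adipo-Pgam1 KO mice, with Acta1 called higher (3.11) and Mylpf not (1.54). Of the 6 lymphocyte markers tested the lowest was Cd4 (-0.38, adjusted p = 0.0876), and of the mesothelial markers 1 was tested, Lrrn4, which fell by 2.31.

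In gWAT, where most macrophage markers did not pass, few markers of other cell types did. Over all genes tested there, 9.99% were called higher and 7.85% lower. Among adipocyte markers Retn fell by 0.95 (adjusted p = 0.013) and Adipoq by 0.89 (adjusted p = 0.0235), and the highest was Plin1 (0.35). Of the 4 thermogenic markers tested, 3 rose, Elovl3 most (4.35, SE 1.0), and Ppargc1a was at -0.52. Zbtb46 of the dendritic list rose by 0.61 (adjusted p = 0.026), and Cd209a, which macrophages can share, was at -0.73 (adjusted p = 0.0622). No marker passed in limma on the monocyte, neutrophil, lymphocyte, mast cell and eosinophil, endothelial, lymphatic endothelial, fibroblast, mesothelial, skeletal muscle or erythroid lists. Of the 49 genes tested on these 10 lists, 6 had an unadjusted p under 0.05 and 0 passed in the methods' t-test, and the changes lay between -1.22 for Cpa3 and 2.20 for Acta1 (adjusted p = 0.0503). Msln, a mesothelial marker, was not well above background on any BAT control array and was at least 169-fold higher in gWAT of controls. Markers of the epididymis, which lies beside gWAT, were not well above background in BAT, and their summed level was 0.0649 to 2.31 in gWAT of controls and 0.23 to 2.26 under the KO label.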

How the data were processed

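Total RNA of BAT and gWAT was labelled with Cy3 and hybridized to Agilent SurePrint G3 mouse arrays, with unlike amounts of RNA stated in the labels and in the paper's methods. The authors deposited each array's scanner intensity, background-subtracted by Agilent Feature Extraction 10.7.1.1, and a table of normalized signal intensities from GeneSpring, which equalled the processed intensity over the 75th percentile of its array within rounding. That scaling was applied here to the deposited intensities before log2. Control spots and outlier flags were left out. A symbol was found for 32994 (91.9%) of the 35886 RefSeq-annotated probes, and probes without a symbol were not tested. Genes were tested whose brightest probe exceeded background clearly on each of the 4 arrays of either group compared. A gene well above background in only the brighter group could thus be counted only in that direction. Groups were compared with limma 3.58.1 in R 4.3.3, with Benjamini-Hochberg adjustment over all genes tested and a threshold of 0.05, and the tests were checked on simulated data. The t-test named in the paper's methods was given the same adjustment here. Those methods name fold change and p-values and state no adjustment, so its counts are not the authors' own calls. Precision is limited by the number of arrays. The labels do not say that replicates were separate mice, and p-values measure the spread between these samples. The members and lists were chosen with earlier results of these data known. Genes named from lists were the 2 largest rises and falls called in each macrophage list and the highest and lowest of each cell type list, and a few others were chosen after their values were seen. Some genes that these rules name are not reported here. The normexp correction used the median spot signal, since a mean signal was not used here. There were 3 slides and 2 scan days, with 3 BAT controls on slide 1, 1 BAT control with the 4 BAT arrays of Adipo-Pgam1 KO mice and 3 gWAT controls on slide 2, and 1 gWAT control with the 4 gWAT arrays labelled Adipo-Pgam1 KO on slide 3. The alternatives were other scalings, filters, probes and tests, blocks for slide and replicate number, and fits without each array.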

Additional observations from a re-analysis of the deposited data

Results flagged for a closer look

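In BAT, 2 arrays stood apart from their group by Dixon's criterion, which chance meets in about 1 of 20 groups tested. It was applied to each of the 9 members in each tissue and genotype, so that some such arrays are met by chance. Csf1r in replicate 4 of the Adipo-Pgam1 KO mice was at 4.94, below the 5.61 to 5.72 of the other arrays. Mrc1 in control replicate 3 was at 1.08, above the 0.49 to 0.57 of the other controls. The genotype difference itself differed between the tissues for 8 members by the interaction in limma, given as gWAT minus BAT. It was -2.11 for Adgre1, -1.58 for Cd68, -1.73 for Csf1r, -3.03 for Mrc1, -2.47 for Lyve1, -3.53 for Clec10a, -3.20 for Folr2 and -2.67 for Retnla.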

How the results depend on the processing

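Of 1105 values of members under alternatives, 1011 were counted as unchanged, 39 lost a call, 24 gained one, 25 changed sign, all in values not called, and 6 within-slide values moved by more than the spread. Unchanged means the same direction and side of the threshold. Within-slide values have no p-value, and unchanged there means within the spread of the main value. In gWAT the within-slide values of Csf1r (-0.0310) and Mrc1 (-0.1772) also changed sign and are not among the 25. In BAT 7 to 9 members were called higher under every alternative and 0 lower, and in controls all 9 were called higher in gWAT, except Adgre1 with its second probe (1.03, adjusted p = 0.179). In the interaction 7 to 9 were called. In gWAT, 0 members were called higher with quantile normalization, Actb and Rplp0 scaling and normexp, and 0 lower with median centring. Without a filter, in the methods' t-test with adjustment and with the slide as a fixed block, 0 were called either way. With that block the adjusted p of Cd68 was 0.384. Without 1 array, the counts in gWAT were 0 to 1 in each direction. Between the tissues under the KO label, 2 members were called higher with median centring, Actb and Rplp0 scaling, normexp, the strict filter, the replicate block and 1 fit over all arrays, and 1 to 2 without 1 array, while 0 were called lower with spike-in or Actb and Rplp0 scaling.

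Signs in gWAT changed for Csf1r with quantile normalization (-0.0301), the mean of all probes (-0.0512), the slide block (-0.0310) and its second probe (-0.29). They changed for Mrc1 with normexp (-0.0403) and the slide block (-0.18), and for Lyve1 with spike-in scaling (0.23). Clec10a changed sign with median centring (0.0145), spike-in scaling (0.33), the mean of all probes (0.0029) and its second probe (0.11), and Folr2 with spike-in scaling (0.31) and between -0.27 and 0.19 without 1 array. Between the tissues under the KO label, Clec10a was at 0.0019 with spike-in scaling, 0.0566 with Actb and Rplp0, 0.0028 with the mean of all probes and 0.15 with its second probe, and between -0.36 and 0.0250 without 1 array. Without 1 array, Adgre1 was there between -0.71 and 0.0122, Cd68 between -0.64 and 0.0391 and Csf1r between -0.0662 and 0.36. Without the 14-week arrays, Csf1r was at -0.25 and Folr2 at -0.0134. The second probes and the fits without the 14-week arrays were chosen after seeing the data. The cause of these changes was not tested.

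Over all genes, 2525 were called in gWAT, but 1384 with median centring, 5161 with spike-in scaling, 1138 without a filter, 1618 in the methods' t-test, 4040 in 1 fit over all arrays, 184 with the slide block and 1080 to 3211 without 1 array. In the interaction 7162 were called, and 3265 with the slide block. Spike-in scaling moved the median change of all genes in BAT from -0.08 to 0.46, and Actb and Rplp0 moved it to -0.67. The share of calls that were higher moved in BAT from 44.8% to 79.6% and 17.7% with these, and in gWAT from 56.0% to 95.3% with spike-in scaling and 71.0% with median centring. The replicate block left every member's call as it was in both genotype comparisons and moved the calls over all genes in gWAT to 1087. It brought Cd163 in the interaction (adjusted p = 0.04) and Lyve1 between the tissues under the KO label (adjusted p = 0.00765) past the threshold. Arrays with the same number in the 2 genotypes deviated together with an r of 0.02, 0.13, 0.22 and 0.00 in BAT and of -0.14, 0.43, -0.02 and -0.07 in gWAT. Between the tissues r was 0.22, 0.16, 0.18 and -0.07 in controls and 0.11, 0.11, 0.29 and -0.19 under the KO label. Between the tissues, the array of the same number was the closest for replicates 1, 2 and 3 in controls and 2 and 3 under the KO label. Between the genotypes it was so for replicates 2 and 3 in BAT and 2 in gWAT. Since not every pair was over 0.1 and the labels state no shared mouse, the numbers were not taken as pairs. Whether the tissues shared mice was not tested, and the main fits across tissues treated all arrays as separate. With 4 arrays a group, and with 1 control on the slide of the KO arrays in either tissue, slide and genotype are separated by a single array.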
